A study of Mus musculus with 6 samples.

Results

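Fully methylated tiles are stretches of 1 kb whose measured cytosines, often only 3 or 4, were methylated in nearly every read. They were taken from enhanced reduced representation bisulfite sequencing (ERRBS) of naive B cells isolated from the spleens of C57BL/6 mice, with 3 libraries labelled Tet2 knockout (KO) and 3 labelled wild type (WT). Bisulfite turns an unmethylated cytosine into a base read as T, whereas both 5-methylcytosine and its oxidised form 5-hydroxymethylcytosine give a C. Cytosines of CpG dinucleotides covered in all 6 libraries were grouped into fixed tiles of 1 kb, and the level of a tile in a library was the percent of its reads with C. Tiles with 3 to 29 cytosines and a mean level of at least 90% over the 6 libraries were kept. These were 53038 of 97420 tiles with 3 to 29 cytosines (54.4%), and 48.7% of all 108943 tiles with at least 3 cytosines. They held 286464 of the 1457048 cytosines (19.7%). The levels therefore describe how the tiles were chosen, while the difference between the genotypes did not enter the choice. The labels name no Tet2 allele, no Cre driver and no age, and they do not tie libraries to mice, so p-values reflect only how these libraries vary, which may be in part technical. The design text of the series speaks of germinal centre B cells, and the sample labels, which name naive B cells, were followed.

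Methylation of CpG is copied to the new DNA strand by the maintenance enzyme DNMT1 and laid down by DNMT3A and DNMT3B. TET2 oxidises 5-methylcytosine, a step towards its removal. In mammalian cells most CpG outside CpG islands are methylated, gene bodies included, and the promoters of many germline genes are CpG-rich and methylated in somatic cells. The residual unmethylated share of a fully methylated tile, 100% minus its level, is the quantity compared between the genotypes below.

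The promoters of 4 germline genes show what full methylation at the measured cytosines of a promoter looks like here. Each sequence is the 300-base promoter window, 5′ to 3′ on the gene's own strand, whose last 50 bases begin with the gene start, from RefSeq on GRCm38.p6, and every CG is in capitals. Slc25a31 encodes the ADP/ATP carrier of the male germline (chr3:40708621-40708920, plus strand), Tex101 a sperm maturation protein of testis (chr7:24672001-24672300, minus strand), Asz1 a protein of the piRNA pathway (chr6:18109012-18109311, minus strand), and Rpl10l a testis ribosomal protein (chr12:66284352-66284651, minus strand).
Slc25a31: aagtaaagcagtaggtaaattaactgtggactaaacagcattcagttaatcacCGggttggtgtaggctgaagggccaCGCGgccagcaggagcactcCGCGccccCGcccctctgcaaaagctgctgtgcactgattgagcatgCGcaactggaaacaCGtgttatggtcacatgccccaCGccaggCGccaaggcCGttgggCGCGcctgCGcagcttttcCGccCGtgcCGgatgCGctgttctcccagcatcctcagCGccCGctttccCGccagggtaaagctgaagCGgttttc
Tex101: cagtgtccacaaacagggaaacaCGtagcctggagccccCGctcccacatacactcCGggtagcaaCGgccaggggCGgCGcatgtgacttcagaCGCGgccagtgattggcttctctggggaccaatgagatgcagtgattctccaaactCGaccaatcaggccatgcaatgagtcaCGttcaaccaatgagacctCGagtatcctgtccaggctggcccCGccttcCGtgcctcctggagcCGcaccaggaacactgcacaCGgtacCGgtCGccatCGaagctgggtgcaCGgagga
Asz1: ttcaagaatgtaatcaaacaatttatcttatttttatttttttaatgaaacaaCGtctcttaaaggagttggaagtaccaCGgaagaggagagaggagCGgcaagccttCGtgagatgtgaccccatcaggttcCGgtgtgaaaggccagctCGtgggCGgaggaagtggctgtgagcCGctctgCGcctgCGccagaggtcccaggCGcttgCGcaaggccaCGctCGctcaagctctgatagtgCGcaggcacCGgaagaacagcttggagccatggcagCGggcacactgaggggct
Rpl10l: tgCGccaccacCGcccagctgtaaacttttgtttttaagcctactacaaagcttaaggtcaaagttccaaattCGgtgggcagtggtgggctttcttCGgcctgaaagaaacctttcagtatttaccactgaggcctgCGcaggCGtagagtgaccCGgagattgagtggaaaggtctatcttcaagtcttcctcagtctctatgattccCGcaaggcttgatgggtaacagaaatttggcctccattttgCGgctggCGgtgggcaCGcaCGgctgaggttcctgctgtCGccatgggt
Each CpG has a cytosine on both strands, counted apart, so a large part of each window was not measured. The Slc25a31 window holds 22 CpG, and its 19 measured cytosines were methylated at 96.3%, 91.0% and 95% in KO 1 to 3 and at 93.7%, 94.5% and 95.5% in WT 1 to 3. The Tex101 window holds 19 CpG, and its 15 measured cytosines were at 91.9%, 94.7% and 96.2% in KO and at 92.4%, 93.7% and 95.7% in WT. The Asz1 window holds 17 CpG, with 12 measured cytosines at 95%, 96% and 97.7% in KO and at 97.7%, 95.2% and 97.1% in WT. In all 3 windows the genotypes overlapped. The Rpl10l window holds 13 CpG, and its 5 measured cytosines were at 98%, 95.6% and 97.5% in KO and 99.0%, 97.2% and 95% in WT, which also overlapped.

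Gene starts were rarely inside fully methylated tiles, and the share fell with the number of CpG in the promoter window. Of 5816 starts of protein-coding genes that lay in a tile with 3 to 29 cytosines, 412 (7.08%), from 395 genes, were in a fully methylated tile. The share was 33.1% for windows with 0 to 4 CpG (129 of 390), 19.14% for 5 to 9 CpG (200 of 1045), 4.20% for 10 to 14 CpG (47 of 1120) and 1.10% for 15 CpG or more (36 of 3261). The median window had 6 CpG where the start was in a fully methylated tile and 17 CpG where it was in another tile. A start in a fully methylated tile does not make the whole window methylated: 126 such windows had at least 3 measured cytosines, with a median level of 94.3% and a lowest of 0.302%.

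Germline genes were the list with most fully methylated starts. Of the 18 germline genes with a start in a measured tile, 11 had it in a fully methylated tile, against 7.08% of all starts; these counts describe the lists and were not tested. The 11 were Rpl10l, Asz1, Tuba3a, Brdt, Tex14, Taf7l, Tex19.1, Slc25a31, Tex101, Tdrd9 and Sycp2, with tile levels from 97.2% for Rpl10l down to 91.8% for Sycp2. Brdt, a bromodomain protein of male germ cells, has 23 CpG in its window, and its tile was at 92.7%, 98.8% and 94.3% in KO and 98%, 94.7% and 98.5% in WT. Tex14, required for the bridges between germ cells, has 20 CpG, and its tile was at 96.3%, 96% and 96.6% in KO and 95%, 95.8% and 96.1% in WT. In neither tile were the genotypes separate. Other germline starts lay below the limit: Sycp1, a component of the synaptonemal complex, was at 86.2%, Zp3, an egg coat protein, at 85.7%, Nlrp5 at 85.0%, Tdrd1 at 72.5% and Smc1b, a meiotic cohesin subunit, at 55.5%. The start of Stag3, another meiotic cohesin subunit, was at 7.91% and that of Zpbp at 0.166%, so not every germline start was methylated.

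No start of the B cell identity (0 of 4), naive B cell (0 of 6), germinal centre and plasma cell (0 of 7), B cell receptor signalling (0 of 7), DNA methylation machinery (0 of 9) or ubiquitously transcribed genes (0 of 13) was in a fully methylated tile. The lists of NK cell (0 of 2), myeloid (0 of 1), erythroid (0 of 3) and neuronal genes (0 of 4) also had none. Over all starts the share was 7.08%. At that share, lists this small would hold few or no such starts, so a count of 0 does not set any of them apart. T cell markers had 1 of 3, that of Cd5, a surface protein of T cells. Keratin, skin and sensory genes had 1 of 2, that of Krt5, a keratin of basal epidermis. Imprinted genes had 1 of 12, that of Mcts2.

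**Figure D1:**
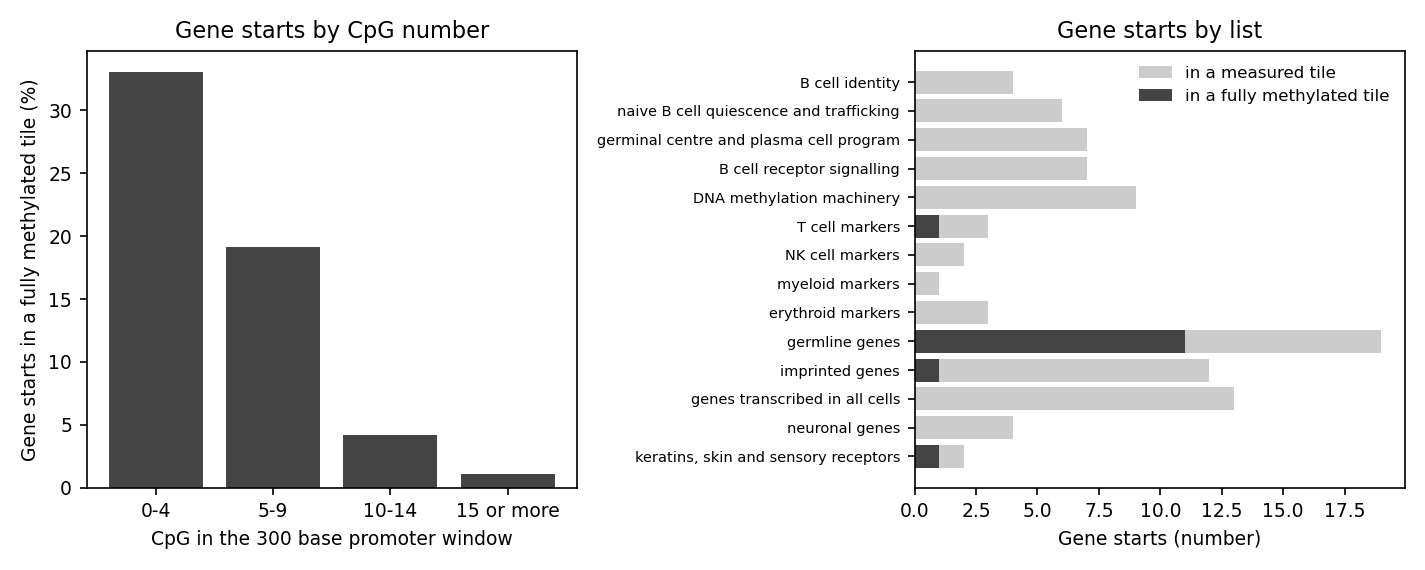
Left, share of gene starts inside a fully methylated tile (percent, bars from 0) by the number of CpG in the promoter window. Right, number of gene starts per gene list in a measured tile (grey) and in a fully methylated tile (dark): 11 of 19 for germline genes. Over all starts the share in a fully methylated tile was 7.08%.

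All 36 starts with 15 CpG or more in a fully methylated tile are described together, a group formed after the values were seen. Their tile levels ran from 90.6% to 97.8%, and 7 belong to the germline list (Brdt, Slc25a31, Tex14, Tex101, Asz1, Taf7l and Tex19.1). Fkbp6, a co-chaperone of the piRNA pathway, has the most CpG in its window with 32, and its tile averaged 93.6%. Hsf2bp, a meiotic recombination factor, had its tile at 96.8%, Ankrd31, also of meiotic recombination, at 97.8%, and Zglp1, a germ cell zinc finger protein, at 94.6%. Outside the germline, Krt7, a keratin of simple epithelia, was at 93.8%. The tile of Mcts2 was at 96% and that of Zdbf2 at 95.5%; both genes are known to be imprinted. The unadjusted p was under 0.05 for the tiles of 2 of these starts, Krt7 and S100z (5.56%), near the 4.94% of all fully methylated tiles and 7.20% of all tiles in either direction, and the smallest adjusted p of the quasi-binomial fit was 0.568.

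A set of 3 short motifs, chosen after the sequences were seen, was searched on both strands of the 300-base windows. The letters CACGTG, an E-box, were in 7.84% of all 21263 windows and in 7.77% of the 412 with a fully methylated start; among windows with 15 CpG or more they were in 8 of 36 (22.2%) and in 11.7% of those with a start in another measured tile. TCCCGC, letters of E2F6 sites, was in 25.8% of all windows and in 6.80% of the 412; among CpG-rich windows it was in 25% and 40.8% respectively. TATAAA was in 12.6% of all windows, in 15.5% of the 412, and in 11.1% and 5.98% of the CpG-rich windows. These shares are descriptions without a test.

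Most tiles were close to the upper end of the scale. The median level of the 53038 tiles was 95.3%, with quartiles at 93.7% and 96.4%; 1480 tiles reached 98% and the highest was at 99.8%. Just inside the limit, tiles in Cers4, Col9a1 and Smtnl1 were at 90%, and just outside it tiles in Prom2 and Caln1 and a tile 2.23 kb from Snai3 were also at 90% after rounding. Fully methylated tiles had fewer cytosines (median 4) than other tiles with 3 to 29 (median 6), and a lower coverage per cytosine (median 83.3 against 101.1 reads).

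**Figure D2:**
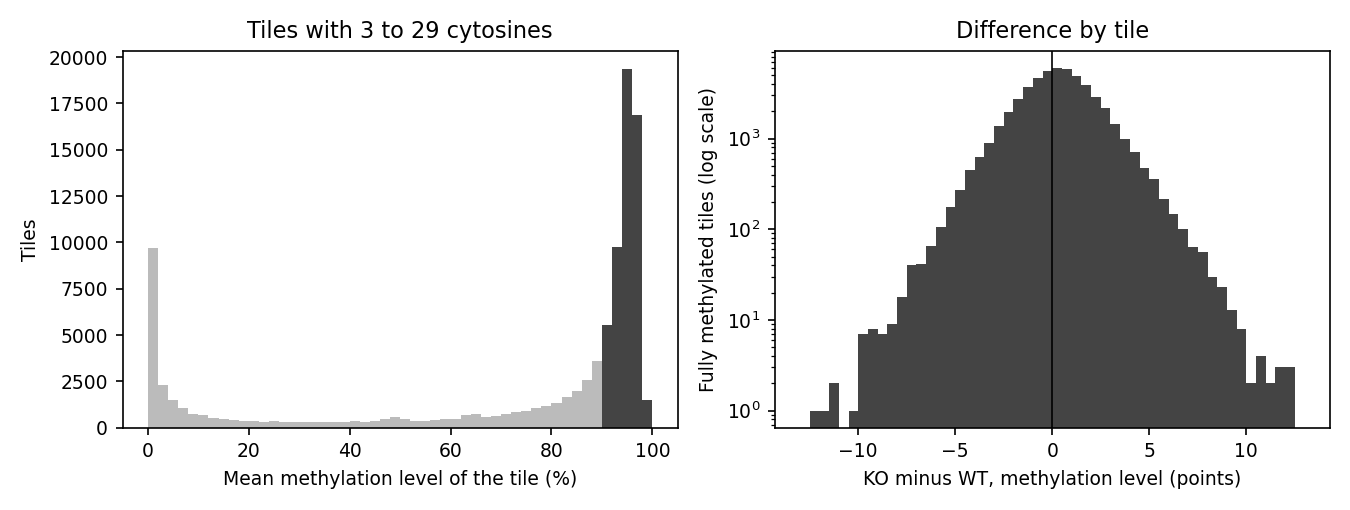
Left, number of tiles with 3 to 29 cytosines by mean level of the 6 libraries (percent, bins of 2 points), with fully methylated tiles dark. Right, number of fully methylated tiles (log scale) by the KO minus WT difference in pooled level (percentage points): the median is 0.320 and the range -12.05 to 12.3.

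Gene interiors held most of them. Of the 53038 tiles, 54.4% lay inside a protein-coding gene at more than 1 kb from its ends, 40.0% outside genes and 5.55% within 1 kb of a gene end. Seen the other way, 63.1% of the interior tiles with 3 to 29 cytosines were fully methylated, 57.6% of those outside genes and 19.9% of those at gene ends. Of the 15655 genes with such a tile, 68.4% had at least 1 fully methylated tile. Measured neighbours were mostly alike: 69.4% of adjacent tiles were at 90% or more, against 48.8% of all tested tiles, and 6.41% were under 10%, against 24.1%. On chromosomes 1 to 19 the share of tiles that was fully methylated ran from 49.99% (chromosome 11) to 58.2% (chromosome 10). It was 55.3% on the X, and 70.8% of 130 tiles on the Y.

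The genes with most fully methylated tiles are long. Wwox, an oxidoreductase gene of 913 kb at a common fragile site (chr8:114439635-115352712), had 72 of its 92 tiles fully methylated, with an unmethylated share of 4.54%, 4.61% and 4.61% in KO and 4.46%, 4.65% and 4.36% in WT. Gse1 (chr8:120228501-120581383) had 61 of 112, with 5.02%, 5.01% and 5.30% in KO and 5.81%, 5.45% and 5.90% in WT. The genotypes overlapped over Wwox and did not overlap over Gse1. Camta1, a calmodulin-binding transcription activator, followed with 50 of 109, Zfhx3, a zinc finger homeobox factor, with 49 of 80, and Slc39a11, a zinc transporter, with 48 of 67. The most fully methylated tiles at gene ends were in Oplah (4), an enzyme of glutathione turnover, and in Rhbdf1, Tjp3, Xirp1 and Nfkbib (3 each). Nfkbib encodes an inhibitor of NF-kB, and 6 of its 8 tiles were fully methylated.

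Of the 4159 genes with at least 5 tiles, 107 had only fully methylated tiles. Among them, chosen after their values were seen, were Sash1, a scaffold protein, with 23 of 23 tiles, and Scarb1, the receptor of high-density lipoprotein, with 17 of 17. Over Scarb1 the unmethylated share was 3.27%, 3.50% and 3.46% in KO and 3.50%, 3.99% and 3.14% in WT, which overlapped. Runs were short, and 83.5% of the tiles had no fully methylated tile directly beside them. Few neighbours were measured (13689 tile sides for 53038 tiles), and 69.4% of these were at 90% or more. The length of runs therefore also reflects which tiles were measured. The longest run had 9 tiles and 76 cytosines in Pxn, which encodes the focal adhesion protein paxillin (chr5:115546001-115555000), with an unmethylated share of 5.72%, 4.02% and 4.62% in KO and 4.25%, 4.64% and 5.71% in WT.

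Within a tile, the least methylated cytosine carries at least an even share of the residual by definition. Its median share was 52.8% in tiles of 3 cytosines, where an even share is 33.3%. It was 35.9% in tiles of 5 (even share 20%) and 25.3% in tiles of 8 (even share 12.5%). Sampling of reads also raises this share, and whether the residual was more uneven than that was not tested. Pooled over all tiles, 59.1% of the measured cytosines were at 95% or more, and these carried 30.8% of the summed unmethylated share; those at 90 to 95% carried 41.6%, those at 70 to 90% carried 25.6%, and the 637 cytosines under 70% carried 2.04%. Only 155 cytosines (0.0541%) were under 50%, in 141 tiles, and 5261 (1.84%) were at 100% in all 6 libraries. The forward strand averaged 5.18% unmethylated and the reverse strand 5.16%. Where both strands of a CpG were measured (32570 CpG), they differed by a median of 1.92 points, and in 0.341% by more than 20 points. Only 3 CpG were under 50% on both strands, while 53 were under 50% on 1 strand alone.

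The unmethylated share was lower in all 3 KO libraries than in any WT library. Averaged over the tiles it was 4.84%, 4.81% and 5.02% in KO 1 to 3 and 5.22%, 5.20% and 5.23% in WT 1 to 3. The means were 4.89% ± 0.115 in KO and 5.22% ± 0.0155 in WT (SD, n = 3), a difference of -0.328 points or a relative change of -6.29%. The two-sided exact permutation test gave p = 0.1, the smallest that 3 against 3 libraries allow, so this difference cannot pass 0.05. The size depends on which libraries choose the tiles: with tiles chosen by the WT mean alone it was -0.124 points (exact permutation p = 0.2), and by the KO mean alone -0.542 points, alternatives added after the data were seen.

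Other measures of the libraries are given beside this difference. In tiles under 2% methylation, where a C read is rare, the methylated share was 0.526% ± 0.050 in KO and 0.468% ± 0.0138 in WT (exact permutation p = 0.2, n = 3), and the libraries overlapped. Cytosines of fully methylated tiles were covered by 96.4 reads on average in KO and 85.2 in WT, with the lowest value, 74.6, in WT 1 (exact permutation p = 0.3). Over all cytosines the mean coverage was 126 in KO and 139 in WT (exact permutation p = 0.2), and in both measures the libraries overlapped. Their part in the difference was not tested.

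By level, the unmethylated share was lower in KO without overlap in tiles at 90 to 92% (8.58% against 9.24%), 92 to 94% (6.67% against 7.10%) and 94 to 96% (4.74% against 5.04%). Tiles at 96 to 98% (3.11% against 3.33%, exact permutation p = 0.3) and at 98% or more (1.56% against 1.63%, exact permutation p = 0.7) overlapped. From the lowest band to the highest, the relative change was -7.13%, -6.00%, -6.04%, -6.38% and -4.06%. By position, it was 4.88% ± 0.125 against 5.27% ± 0.0585 at gene ends, 4.63% ± 0.0952 against 4.99% ± 0.0126 in gene interiors, and 5.25% ± 0.142 against 5.52% ± 0.0349 outside genes (KO against WT, SD, n = 3), each without overlap. Tiles within 2 kb of an unmethylated tile (under 10%) had 4.93% in KO and 5.37% in WT, and tiles with none within 2 kb 4.89% and 5.21%, both without overlap. On the X, 1135 tiles had 4.81%, 4.80% and 5.06% in KO and 5.01%, 5.22% and 5.23% in WT, which overlapped. Over the 15 contexts, no exact permutation p was under 0.05 and the smallest Benjamini-Hochberg adjusted value was 0.125.

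**Figure D3:**
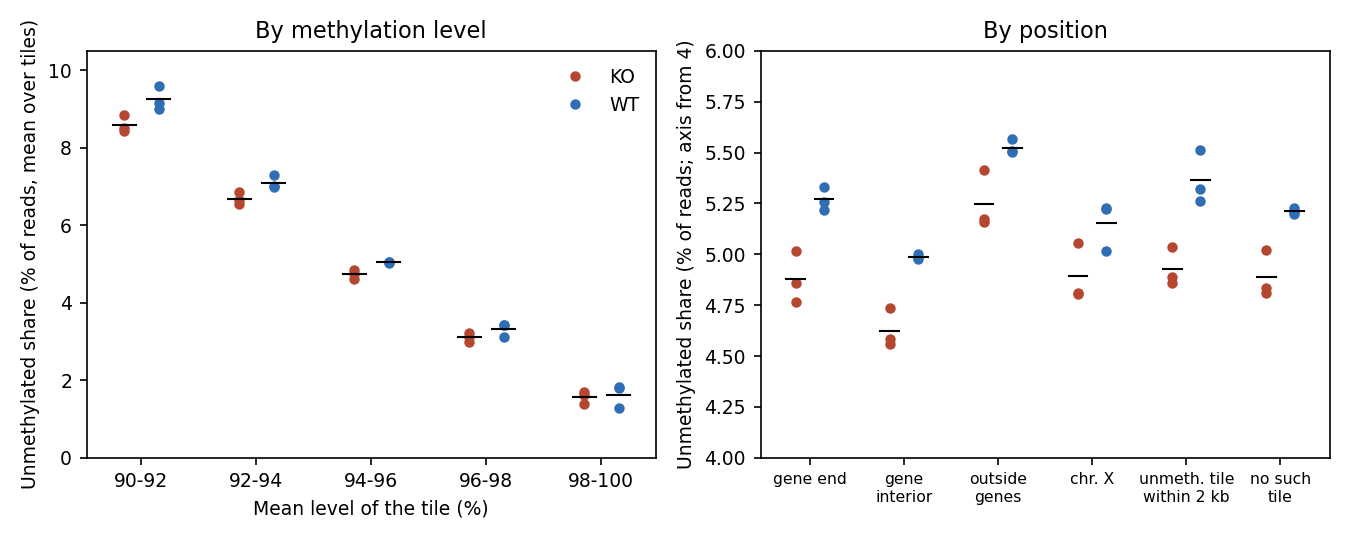
Unmethylated share (percent of reads, mean over tiles) in each library, with KO red, WT blue and the mean of 3 libraries as a bar, by tile level (left) and by position (right, axis from 4%). KO libraries lie below WT libraries without overlap in tiles at 90 to 96% and at gene ends, interiors and outside genes, and overlap with WT above 96% and on the X.

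Tiles at 70 to 90% moved in the same direction. Their mean unmethylated share was 16.5% ± 0.428 in KO and 17.8% ± 0.660 in WT. On the scale of log2 odds of methylation, the difference between KO and WT was 0.16 in fully methylated tiles and 0.14 in tiles at 70 to 90%. These differed by 0.0118, with an exact permutation p of 0.8. With a smallest possible p of 0.1, no difference between the classes could have passed 0.05 in this design. Leaving out WT 2 turned this value to -0.0126.

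Tile by tile, no fully methylated tile was called. The quasi-binomial fit, with adjusted p under 0.05 and a difference of at least 10 points, called 0 of 53038 higher and 0 lower in KO, against 0.112% (higher) and 0% (lower) of all 108802 tiles tested. A tile with a mean level above 95% has almost no room for a difference of 10 points in either direction. Of the 53038 tiles, 29702 were at 95% or more. At an adjusted p under 0.05 alone, 2 tiles were higher and 0 lower, against 0.13% and 0% of all tiles. Tiles with an unadjusted p under 0.05 numbered 1930 (3.64%) with higher methylation in KO and 692 (1.30%) with lower, against 5.74% and 1.46% of all tiles. The genotypes did not overlap in 3789 tiles (7.14%) that were higher in KO and 2009 (3.79%) that were lower, against 8.36% and 3.37% of all tiles. By direction alone, 57.2% of the tiles were higher in KO, against 59.8% of all tiles. No single cytosine of these tiles was called (0 of 281193 in either direction, against 0.000731% higher and 0% lower of all cytosines tested); at an unadjusted p under 0.05, 6.33% were higher and 3.598% lower, against 5.31% and 3.17%.

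Among the tiles with the smallest p that were higher in KO was a tile inside Runx2, a transcription factor of bone formation. The tile (chr17:44724001-44725000, GRCm38) has 10 cytosines between 44724756 and 44724889 with a mean coverage of 97.3 reads. Its level was 95.9%, 95.4% and 94.4% in KO and 88.0%, 88.6% and 87.8% in WT. All 3 KO libraries were above all WT libraries, with 95.2% ± 0.796 against 88.1% ± 0.380 (SD, n = 3), and over the pooled reads the difference was 7.03 points, with an adjusted p of 0.0424. The adjusted p rose above 0.05 when any 1 library was left out (from 0.0646 without KO 3 to 0.189 without KO 2), with cytosines weighted equally (0.130), with the replicate block (0.736), without moderation (0.903), with edgeR (0.884) and with limma (0.704). It also rested on leaving out the 141 tiles with reads of a single kind.

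The other tile at adjusted p under 0.05 (0.0311) lies on chromosome 2 (chr2:98666001-98667000), 1035 kb from the nearest protein-coding gene, Lrrc4c. It was covered by 19909 reads per cytosine, far above the median of 83.3. It was at 97.6%, 97.7% and 97.5% in KO and 97.2%, 97.4% and 97.3% in WT, a difference of 0.291 points. With the cytosines of highest coverage left out, the difference was -0.446 points with an adjusted p of 0.974. A tile 4 kb away on the same stretch (chr2:98662001-98663000), also covered deeply with 1844 reads per cytosine, averaged 96.4% ± 0.369 over the KO libraries and 94.7% ± 1.03 over the WT libraries (SD, n = 3), with an adjusted p of 0.0591.

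Abca7, a lipid transporter, had an interior tile (chr10:80013001-80014000, 15 cytosines) at 96.7%, 97.3% and 97.5% in KO and 91.3%, 94.2% and 92.1% in WT, a difference of 4.58 points with an adjusted p of 0.0618. A tile 9.52 kb from Zmynd8, a chromatin reader gene (chr2:165908001-165909000), was at 98.6%, 99.0% and 99.5% in KO and 93.2%, 94.7% and 95.3% in WT (4.47 points, adjusted p 0.0855). Neither passed the adjusted threshold. Tiles without overlap were the only ones the naming rule admitted.

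Of the tiles lower in KO, that at an end of Krt75, a hair follicle keratin (chr15:101573001-101574000, 5 cytosines), had the smallest p. It was at 84.2%, 87.8% and 83.0% in KO and 97.7%, 92.2% and 95.3% in WT, a difference of -10.1 points with an adjusted p of 0.204. A tile 1.72 kb from Psmd1, a proteasome subunit gene, differed by -7.87 points (adjusted p 0.238), and a tile 523 kb from Rgmb by -5.05 points (adjusted p 0.278). Inside Chd7, a chromatin remodeller, a tile differed by -4.42 points (adjusted p 0.294), and inside Taok3, a kinase, by -9.84 points (adjusted p 0.352). These are the tiles named for their small p, and none passed the adjusted threshold.

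**Figure D4:**
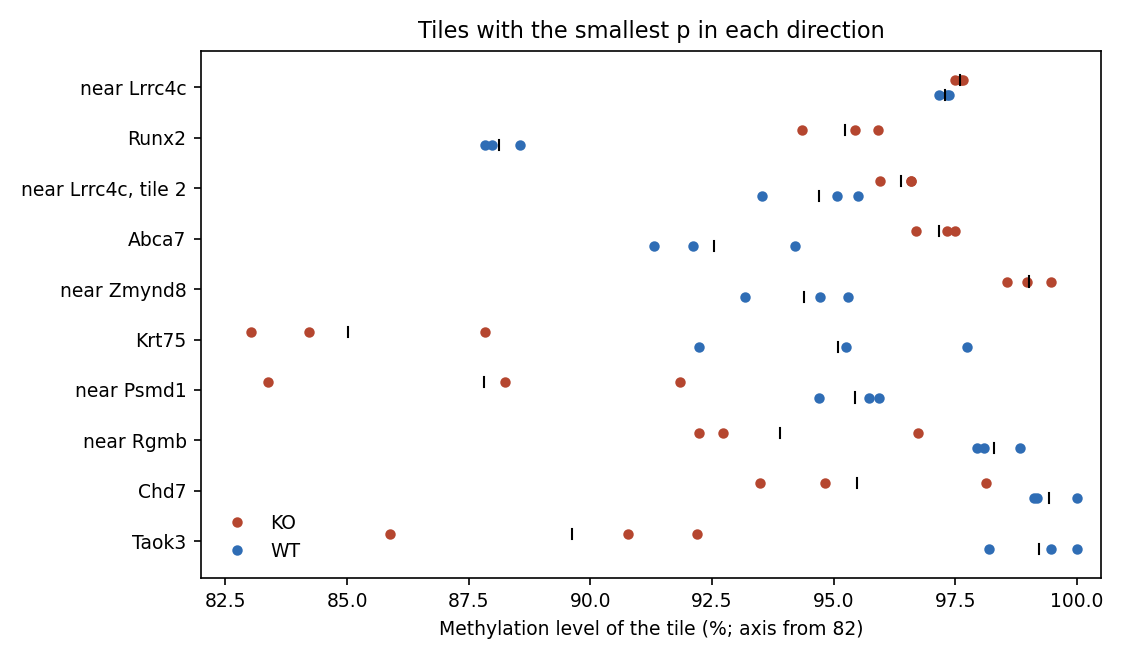
Methylation level (percent, axis from 82) of the 5 tiles higher and 5 tiles lower in KO with the smallest p among tiles whose genotypes do not overlap, with each library as a point (KO red, WT blue) and means as bars. The Runx2 tile separates 94.4 to 95.9% in KO from 87.8 to 88.6% in WT.

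Tet2 itself (gene 214133, chr3:133463677-133545136) has 3 tiles with 3 to 29 cytosines, all fully methylated and in its interior. A further tile at a gene end (chr3:133544001-133545000) has 94 cytosines, above the limit of 29, and a mean level of 0.121%. The tile at 133468001 was at 96.1%, 98.2% and 94.8% in KO and 99.0%, 98% and 97.2% in WT. The tile at 133533001 was at 95.7%, 98.4% and 97.7% in KO and 94.5%, 96.4% and 96.4% in WT, and that at 133534001 at 99.1%, 97.7% and 95% in KO and 94.4%, 95.6% and 97.3% in WT. The genotypes overlapped in all 3 fully methylated tiles, and the smallest adjusted p was 0.860. All 3 have reads in the KO libraries, so they do not check the deletion.

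Mean unmethylated shares are given by list as descriptions, and differences between lists were not tested. Averaged over the 6 libraries, the unmethylated share of fully methylated tiles was lowest for the DNA methylation machinery (3.84%, 56 tiles) and B cell receptor signalling (4.34%, 122 tiles), and highest for neuronal genes (6.05%, 231 tiles) and imprinted genes (6.03%, 37 tiles). Germline genes had 5.84% over 59 tiles. Of the 14 lists, 6 had every KO library below every WT library (B cell receptor signalling, DNA methylation machinery, T cell markers, germline, neuronal, and keratin, skin and sensory genes) and none the reverse. All fully methylated tiles together showed the same separation. The size rested in part on single libraries: the KO minus WT difference of B cell receptor signalling went from -0.362 to -0.160 points without WT 1, and that of germline genes from -0.437 to -0.212 points without WT 2. That of keratin, skin and sensory genes went from -0.223 to -0.0474 points with cytosines weighted equally. In this list, alone among the 6, the median tile difference in methylation was negative (-0.137 points), and 12 of 30 tiles were higher in methylation in KO. For T cell markers the median was 0.0604 points, against 0.320 points over all fully methylated tiles, and 22 of 41 tiles were higher.

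In the DNA methylation machinery the unmethylated share was 3.43%, 3.56% and 3.25% in KO and 4.48%, 4.06% and 4.27% in WT. Of its 56 tiles, 40 (71.4%) were higher in methylation in KO, against 57.2% of all fully methylated tiles and 59.8% of all tiles, with a median difference of 0.974 points, against 0.320 points over all fully methylated tiles. The unadjusted p was under 0.05 for 3 tiles higher (5.36%) and 1 tile lower (1.79%) in KO, near the 3.64% and 1.30% of all fully methylated tiles, and the smallest adjusted p was 0.334. Tet3, a TET2 relative that also oxidises 5-methylcytosine, had 10 of 12 tiles fully methylated, with 3.34%, 3.69% and 4.06% unmethylated in KO and 4.57%, 4.05% and 4.03% in WT. Dnmt1 had 10 of 11, with 3.43%, 5.01% and 3.86% in KO and 4.03%, 3.53% and 4.43% in WT. In Dnmt3a, 5 of 8 tiles were fully methylated, with 4.62%, 2.98% and 2.09% in KO and 4.95%, 5.37% and 4.48% in WT. The genotypes overlapped over each of these 3 genes.

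B cell genes also carried fully methylated interiors. Pax5, the factor that maintains B cell identity, had 12 of 25 tiles fully methylated, with 5.23%, 6.95% and 7.46% unmethylated in KO and 6.63%, 6.44% and 4.63% in WT. Ebf1, an early B cell factor, had 7 of 20, with 6.26% ± 0.981 in KO and 6.28% ± 0.962 in WT (SD, n = 3). Foxp1, a factor of naive B cells, had 20 of 31, with 4.15% ± 0.579 and 4.87% ± 1.38. Bach2, a repressor of plasma cell differentiation, had 8 of 15, with 4.86%, 4.31% and 4.59% in KO and 4.48%, 3.52% and 3.50% in WT. Prdm1, the plasma cell factor, had 5 of 12, with 3.03% ± 0.605 and 3.73% ± 1.22. The genotypes overlapped over all 5 genes. In B cell receptor signalling, Itpr1, a calcium channel of the endoplasmic reticulum, had 15 of 27 tiles, with 3.57% ± 0.393 against 3.49% ± 0.275. Plcg2, the phospholipase downstream of the receptor, had 14 of 19, with 2.99%, 3.50% and 4.01% in KO and 5.95%, 3.72% and 3.97% in WT. Without WT 1, the difference over Plcg2 went from -1.05 to -0.348 points and that over Foxp1 from -0.725 to -0.0363 points.

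Among genes of other lineages, Bcl11b, a T cell factor, had 8 of 24 tiles fully methylated and Zap70, the kinase of the T cell receptor, 4 of 6. Over Zap70 the unmethylated share was 5.73%, 6.17% and 5.43% in KO and 8.81%, 8.51% and 7.05% in WT, without overlap. Over Bcl11b it was 5.18% ± 0.680 in KO and 6.09% ± 0.794 in WT. Gata3, another T cell marker, had 5 of 15 tiles, with 4.78% ± 0.147 in KO and 4.85% ± 0.909 in WT. The genotypes overlapped over both Bcl11b and Gata3. Tdrd9, a helicase of the piRNA pathway, had 10 of 12, with 7.16% ± 0.142 in KO and 7.27% ± 0.534 in WT. Cacna1c, a calcium channel of excitable cells, had 23 of 36, with 5.94% ± 0.533 and 6.25% ± 0.686. Flg, an epidermal filament protein, had all 6 of its 6 tiles fully methylated, with 4.47% ± 0.527 and 4.44% ± 0.879.

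**Figure D5:**
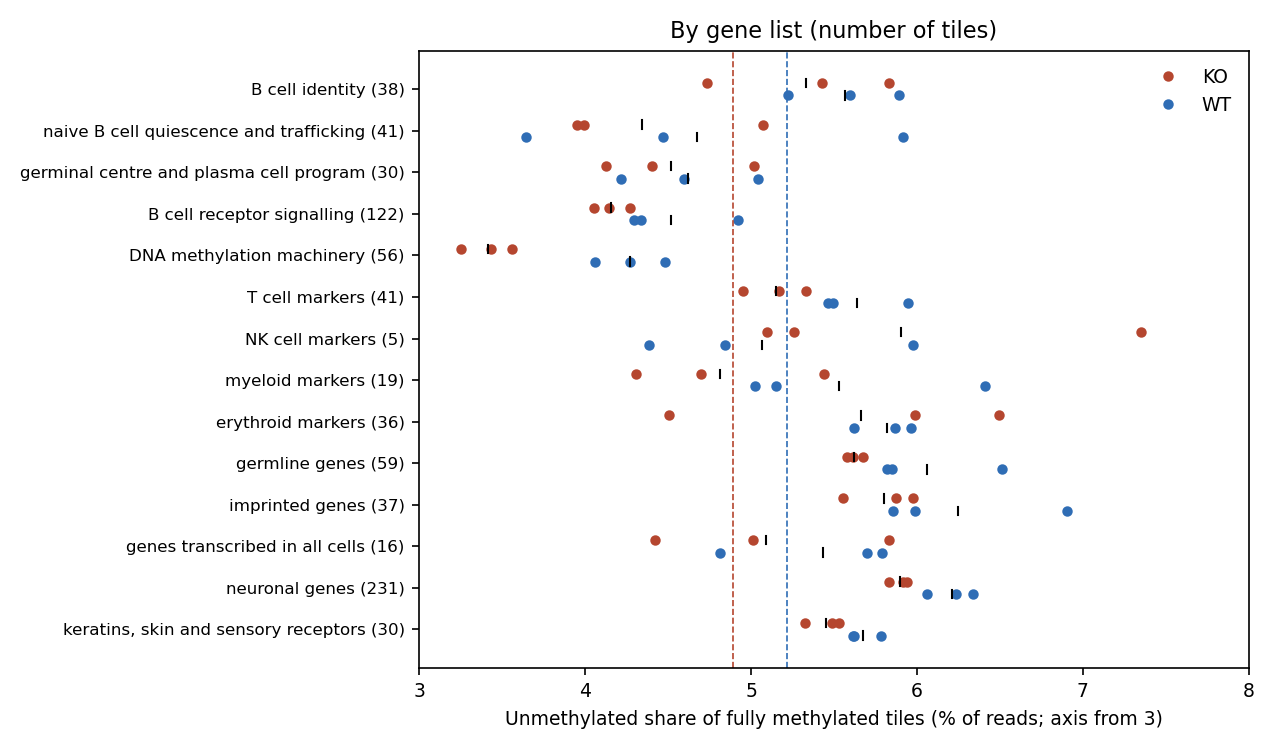
Unmethylated share (percent of reads, axis from 3) of fully methylated tiles by gene list, with the number of tiles in brackets, 1 point per library (KO red, WT blue), means as bars and dashed lines at the means of all fully methylated tiles. The DNA methylation machinery lies lowest, at 3.41% in KO and 4.27% in WT.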

How the data were processed

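Per the submitters' processing notes, reads were processed with Bismark on GRCm38; its version is not given in the sources used here. The deposited tables hold a read count per CpG cytosine and strand, at least 10 in every row, and the percent of reads with C and with T, per the file headers. Multiplying percent by coverage gave back the C and T counts, all (100%) whole. Libraries held 1551481 to 1626375 cytosines, at a median coverage of 92 to 110 reads; reads carry no molecular identifiers, so depth covers counting error only. Gene positions and promoter windows came from RefSeq on GRCm38.p6 (21900 protein-coding genes). The fully methylated tiles, gene lists and tests were chosen with earlier results of these data known.

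Tiles and cytosines were tested with a quasi-binomial model of C and T counts (R 4.3.3), with overdispersion moderated by limma 3.58.1 and never below 1, an F test, and Benjamini-Hochberg adjustment over all 108802 tiles, or over all 1095119 cytosines. Left out were 141 tiles with C reads alone or T reads alone. That exclusion was chosen after a first fit that kept such tiles had called no tile of any level, and with the number of calls of an earlier analysis known; robust moderation was also tried and not adopted. Library means were compared with two-sided exact permutation tests. Libraries of a genotype differed by more than sampling noise. Genes were named by rule: Tet2; the 5 tiles per direction with the smallest p and no overlap; the 5 genes with most tiles, and with most tiles at gene ends; the 3 genes with most tiles per list, of which a part is printed. Alternatives were at least 20 reads per cytosine, an upper limit on coverage, autosomes, equal weights, other level and number limits, strands apart, no moderation, edgeR 4.0.16, limma, each library left out, and the replicate block.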

Additional observations from a re-analysis of the deposited data

How the results depend on the processing

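The lower unmethylated share in KO kept its sign in all alternatives tried, between -0.124 and -0.542 points, and every exact p was at least 0.1. Both ends of that range come from tiles chosen by 1 genotype. With tiles chosen by all 6 libraries the difference ran from -0.224 points (95% or more) to -0.412 points (strands apart). With tiles chosen by the KO mean alone, 8 were called higher in KO. These 8 entered the set through their high KO values, so their direction follows from the choice. Without each library in turn, 0 tiles were called higher and 0 to 1 lower, and 0 to 1 cytosines lower, the 1 in both cases without KO 1. No tile was called under any other alternative. Tiles higher and lower in KO with an unadjusted p under 0.05 numbered 951 and 357 at 95% or more, 902 and 276 with at least 5 cytosines, and 480 and 189 with strands apart, where fewer tiles were tested, and 2915 higher with limma, where the cause was not tested. Tiles at adjusted p under 0.05 alone numbered 0 with the 141 tiles kept, 3 with robust moderation, and 17 higher and 1 lower without cytosines under 50%. At 98% or more the difference turned to 0.0255 without KO 1, 0.0318 without WT 2 and 0.0141 without WT 3; leave-one-out values ran from -0.244 to 0.0318. The log2 odds difference ran from -0.0126 without WT 2 to 0.0450 without WT 1. The tile near Lrrc4c turned to -0.446 points with the upper limit on coverage. With cytosines weighted equally, the DNA methylation machinery differed by -0.668 points in place of -0.857. Of 112 values of gene lists, 109 moved by less than 1 SD of the libraries, as did 246 of 248 values of named genes. Leaving out 1 library cannot move a difference by that much, so these counts do not show stability. Another sign under at least 1 alternative was taken by 5 of 14 lists and 12 of 31 named genes. Among lists these were B cell identity (0.0605 without KO 1), NK cell markers (-0.506 with equal weights, from 0.834) and erythroid markers (0.425 without KO 1). So did the germinal centre list (0.0935 without KO 2, 0.109 without WT 3) and the naive B cell list (0.286 without WT 1). The genes were Camta1, Dnmt1, Ebf1, Flg, Itpr1, Nfkbib, Oplah, Scarb1, Tdrd9, Tet2 and 2 genes not named in the text. With the replicate block, the mean difference had an exact sign-flip p of 0.25, the smallest that 3 pairs of libraries allow. No tile was called (0) with this block, while 1798 tiles higher in KO and 748 lower had an unadjusted p under 0.05. Over tiles, same-numbered libraries did not deviate together (correlations 0.0059, 0.0030 and 0.0028). The labels do not say whether the numbers mark a pairing, and these correlations cannot decide it. Depth limits tiles with few cytosines: 54.0% have 3 or 4.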
